A study of Mus musculus with 12 samples.

Results

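Control segment 1 and control segment 3 of the mouse epididymis were compared, with 2 libraries on each side out of 12 in the series. The members were taken as the columns of the 2 control groups in both count tables and were set against each other within each table; the tables carry the numbers 3017 and 3097 and are called batches here. Every library of either group came from wild-type mice whose efferent ducts were not ligated, and each was a pool of 2 mice, so p-values measure the spread between pools and not between mice. The libraries were made from polyadenylated RNA, starting from 500 ng of total RNA, with a kit that keeps strand. The other 8 libraries, 2 of control segment 2 and 6 of segments 1 to 3 after efferent duct ligation, entered the model that estimates the spread, and segment 2 is also described where it bears on a gene. Neither the age of the mice nor whether segments 1 and 3 were taken from the same animals is given in the sources used here.

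The epididymis is a single coiled tubule in which sperm leaving the testis mature, and septa of connective tissue divide it into segments with distinct gene expression. Segment 1, the initial segment, receives fluid from the efferent ducts; its tall principal cells resorb that fluid and depend on androgen and on factors that arrive in the lumen, a dependence called lumicrine signalling, of which the receptor tyrosine kinase ROS1 and the ERK pathway are known parts. Segment 3 lies further along the head, or caput, where principal cells secrete proteins that coat sperm, among them lipocalins, beta-defensins, protease inhibitors and a glutathione peroxidase.

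Levels are normalised read counts (CPM, scaled by TMM), with the library of batch 3017 before that of batch 3097. Log2 fold changes are segment 1 over segment 3, with their standard error, so positive values are higher in segment 1. Genes were tested in edgeR (quasi-likelihood test), p-values were adjusted over all genes, and a gene was called at an adjusted p under 0.05. Libraries of segment 1 held 42.3 and 36.3 M counts and those of segment 3 held 35.2 and 39.3 M, at which 3 counts are worth between 0.0764 and 0.0853 CPM in segment 3 and between 0.0709 and 0.0825 CPM in segment 1 before scaling. The 2 libraries of segment 3 differed more from each other than those of segment 1, as the chi-square of their counts over its degrees of freedom was 80.1 against 29.8. Markers of the epithelium were present on both sides: Epcam held 479 and 406 CPM in segment 1 and 411 and 418 CPM in segment 3 (0.09 ± 0.13, adjusted p = 0.59), and Krt8 held 488 and 473 against 407 and 475 CPM (0.13 ± 0.10, adjusted p = 0.33).

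The segments differed widely: edgeR called 9829 genes, 51.2% of the 19213 in the test. Those higher in segment 1 numbered 4796 (25.0% of the genes tested) and those higher in segment 3 numbered 5033 (26.2%). Each of the 9829 had the same direction in both batches, but the calls came from these same libraries, so that agreement adds no separate support. The same holds where libraries of called genes are said below not to overlap between segments. The median log2 fold change over all genes was -0.05. Among genes with at least 5 CPM in the higher segment, 6933 of 11439 were called. Of these, 1219 were at least 2-fold higher in segment 1 and 1250 in segment 3. Further out the counts parted: 152 genes were at least 32-fold higher in segment 1 against 70 in segment 3, and 54 against 15 were at least 128-fold higher. Calls at low level were also made: 1111 called genes held under 1 CPM in the higher segment, and 186 had no counts in either library of one segment.

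**Figure D1:**
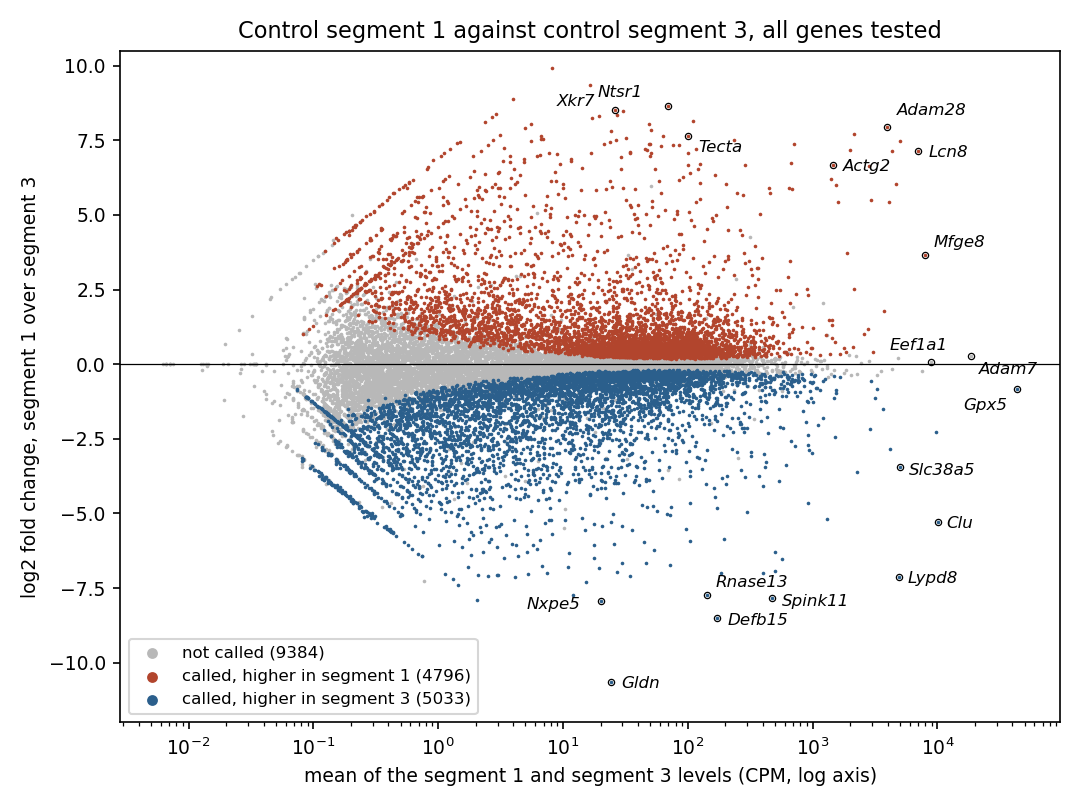
Each point is a gene, placed by the mean of its segment 1 and segment 3 levels (CPM, log axis) and its log2 fold change (segment 1 over segment 3); red and blue points were called. A segment without counts was entered at 3 counts a library. The 4796 red and 5033 blue genes spread over the whole range of levels, with Gldn, which had 2 counts in segment 1, lowest and Ntsr1 and Xkr7 near the top, while Adam7 and Eef1a1 lie close to 0.

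Segment 1 was marked by abundant secretory transcripts. Mfge8, which encodes the secreted glycoprotein lactadherin (MFG-E8, also described on sperm), held 14715 and 14589 CPM in segment 1 and 2135 and 537 CPM in segment 3. Its 2 segment 1 libraries were almost level, those of segment 3 lay apart from each other, and the groups did not overlap (3.64 ± 0.63, adjusted p = 0.0036). Lcn8, a lipocalin gene of the initial segment, held 13694 and 14229 CPM against 94.6 and 102 CPM, a 141-fold difference (7.14 ± 1.29, adjusted p = 0.0057). Adam28, of the ADAM family of membrane proteases, held 8193 and 7499 against 24.6 and 39.5 CPM, 245-fold higher in segment 1 (7.94 ± 1.43, adjusted p = 0.0058). These differences of over 100-fold, in genes picked among those called, separate all 4 libraries by segment. Rnase10, a member of the RNase A family secreted by the initial segment, held 8717 and 9638 against 259 and 66.5 CPM (6.05 ± 0.89, adjusted p = 0.0023). Lcn9, also a lipocalin gene, held 8228 and 8939 against 67.8 and 56.4 CPM (7.15 ± 1.09, adjusted p = 0.0028). Lcn2, whose product binds bacterial siderophores, differed less: it held 5886 and 5726 against 2044 and 1403 CPM (1.78 ± 0.26, adjusted p = 5.6e-04).

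Among the genes of at least 2-fold difference, Mfge8 took the largest share of counts of those higher in segment 1, and its promoter is shown for that reason. It is the RefSeq sequence of 250 bases before the start (GRCm38.p6, chr7:79149061-79149310, minus strand), 5′ to 3′.
Mfge8: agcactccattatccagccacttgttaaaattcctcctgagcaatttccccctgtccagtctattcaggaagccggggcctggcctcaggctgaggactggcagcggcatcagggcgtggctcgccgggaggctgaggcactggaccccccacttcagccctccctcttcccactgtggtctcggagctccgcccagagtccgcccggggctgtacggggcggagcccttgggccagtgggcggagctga
Both strands were searched for 5 motifs, and matches are set in capitals here and below. They were a PEA3-type ETS site, spelled AGGAAGT, and an ETS consensus core, spelled CCGGAAG. A steroid receptor half-site was spelled AGAACA. The TATA box was spelled TATAAA. The last motif was the AP-1 consensus, spelled TGANTCA with N for any base. This window holds none of them. AGGAAGT was found in 7.69%, CCGGAAG in 6.91%, AGAACA in 16.1%, the AP-1 consensus in 6.75% and TATAAA in 12.4% of all 32851 promoters of this length in the table. Clu and Adam28 have no entry in that table. Over genes of at least 5 CPM called at least 8-fold higher in segment 1 with a promoter in the table, 29 of 225 (12.9%) held AGGAAGT, against 23 of 215 (10.7%) of those higher in segment 3 and 8.63% of the 12925 tested genes matched. CCGGAAG was found in 4.89% and 1.40% of the same groups and in 13.5% of the tested genes matched. For AGAACA the shares were 18.7%, 16.3% and 13.7%, for the AP-1 consensus 8.89%, 8.84% and 5.98%, and for TATAAA 14.2%, 9.77% and 8.77%, in the same order. These shares are descriptions of letters, not of bound sites.

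Teddm1a and Teddm2, neighbouring genes of the transmembrane epididymal protein family, were also abundant in segment 1. Teddm1a held 7342 and 8641 against 406 and 57.8 CPM (5.44 ± 1.12, adjusted p = 0.0092). Teddm2 held 5971 and 5194 against 43.7 and 69.6 CPM (6.62 ± 0.30, adjusted p = 5.1e-06), but its gene model overlaps its neighbours, so reads of the 3 cannot be assigned with certainty. Teddm1b, which like Teddm1a lies within the span of the Teddm2 gene model, went the other way, at 205 and 805 against 2455 and 2604 CPM (-2.45 ± 0.51, adjusted p = 0.0075; 0.115 and 0.0517 with the 4 libraries and the 6 control libraries alone). Teddm1a and Teddm2 differed in segment 2, where Teddm1a held 5985 and 1481 CPM and Teddm2 68 and 46.3 CPM. With only the 4 libraries of segments 1 and 3 in the model, Teddm1a missed the threshold (adjusted p = 0.156), and with the 6 control libraries so did Lcn8 (adjusted p = 0.0529).

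Segment 3 carried a different set of abundant transcripts. Clu, encoding the secreted chaperone clusterin, held 453 and 564 CPM in segment 1 and 16847 and 22583 CPM in segment 3, 38.6-fold higher in segment 3 (-5.27 ± 0.66, adjusted p = 7.5e-04). Slc38a5, a glutamine transporter gene, held 599 and 1169 against 8961 and 9479 CPM (-3.43 ± 0.26, adjusted p = 1.8e-05). Glul, encoding glutamine synthetase, held 902 and 1130.1 against 7228 and 7305 CPM (-2.85 ± 0.31, adjusted p = 1.5e-04). For these 3 genes, picked as called and abundant, both segment 3 libraries lay far above both segment 1 libraries. Spink5, of the Kazal-type protease inhibitors, held 277 and 425 against 3961 and 4446 CPM (-3.61 ± 0.29, adjusted p = 3.2e-05). Ap1s2, a clathrin adaptor subunit gene, and Cuzd1, which encodes a CUB and zona pellucida-like domain protein, fell by 1.49 ± 0.15 and 1.13 ± 0.13 on the log2 scale from segment 3 to segment 1 (adjusted p = 5.2e-05 and 1.0e-04).

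Lypd8, whose product is a GPI-anchored protein known for keeping flagellated bacteria off the colon epithelium, was uneven within segment 1. It held 10432 and 9041 CPM in segment 3, and 4.01 and 191 CPM in segment 1, where the library of batch 3097 lay far above that of batch 3017. The groups did not overlap (-7.13 ± 1.77, adjusted p = 0.019). The adjusted p was 0.0533 without the segment 3 library of batch 3017, 0.299 with only the 4 libraries in the model and 0.0755 with the 6 control libraries.

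**Figure D2:**
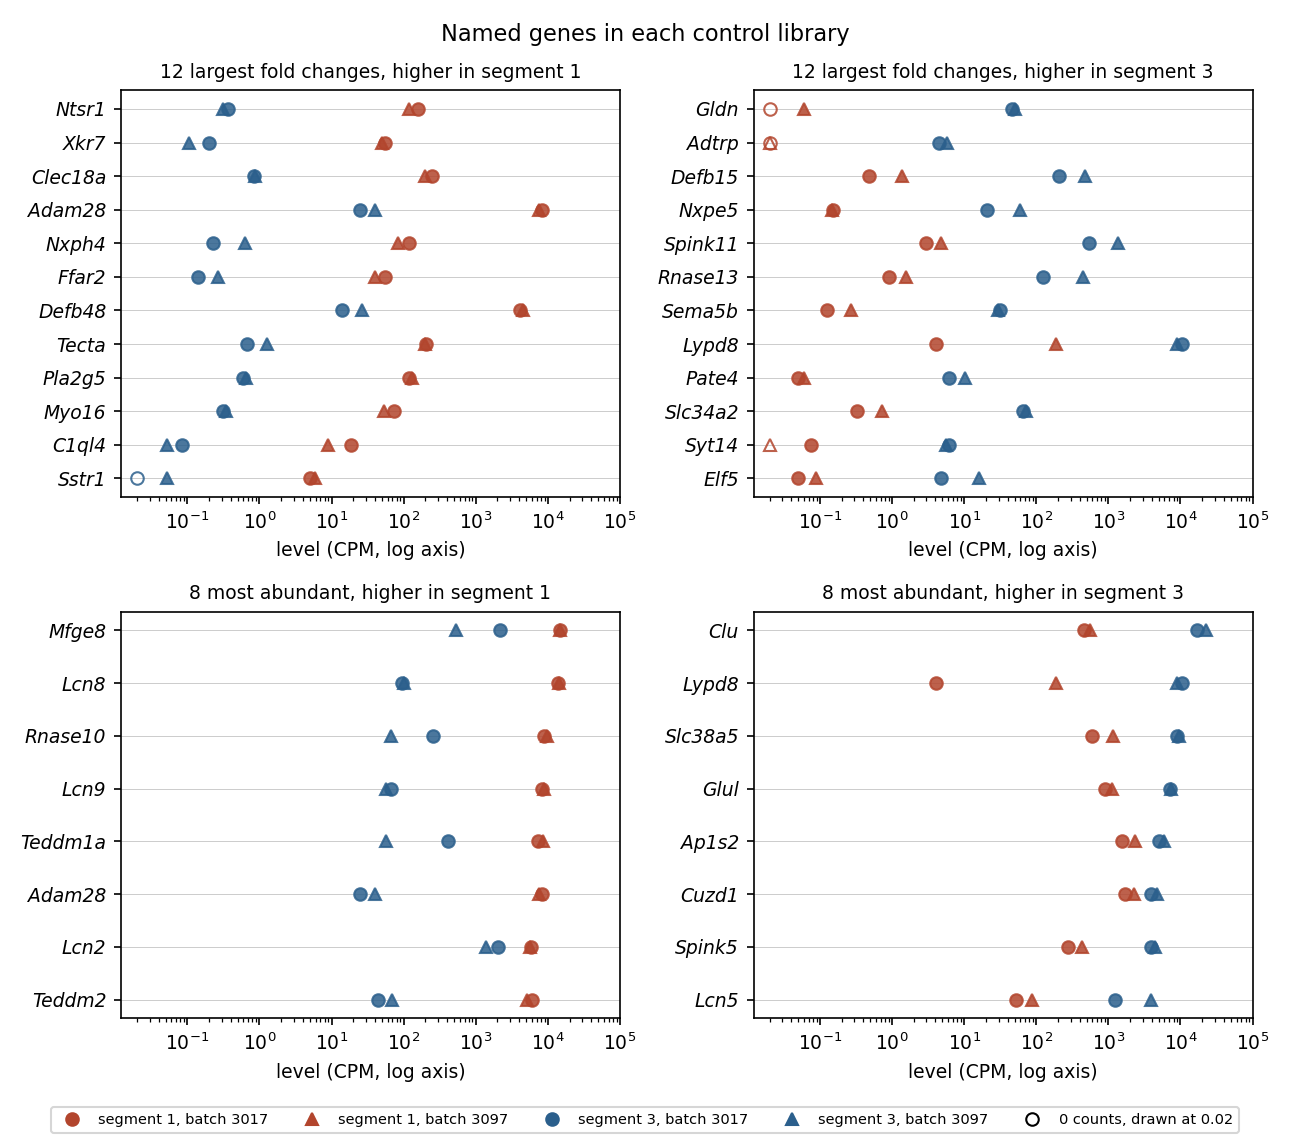
Levels (CPM, log axis) in each control library of segments 1 and 3; the upper panels hold the 12 largest fold changes in each direction and the lower panels the 8 genes highest in CPM. Red marks are segment 1, blue marks segment 3, circles batch 3017 and triangles batch 3097, and open marks are libraries with 0 counts. The genes were chosen among those called with the same direction in both batches, which favours rows where red and blue marks do not interleave. None interleave, and the widest gap between marks of 1 segment is that of Lypd8 in segment 1.

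The 12 largest fold changes higher in segment 1, chosen among protein-coding genes of at least 5 CPM, included 2 abundant genes, Adam28 (7.94 ± 1.43) and Defb48 (7.7 ± 0.76), and 10 genes at lower levels. Ntsr1, the receptor for the neuropeptide neurotensin, held 160.3 and 118 CPM in segment 1 and 0.369 and 0.316 CPM in segment 3 (8.66 ± 0.52, adjusted p = 2.5e-04). Ffar2, whose product senses short-chain fatty acids, held 55.6 and 40.3 against 0.142 and 0.263 CPM (7.82 ± 0.39, adjusted p = 8.3e-06). Sstr1, a somatostatin receptor gene, held 5.08 and 5.9 CPM in segment 1 and 2 counts in segment 3, a ratio of 199.7 with a 95% interval of 54.9 to 1654. All 3 are G protein-coupled receptors with almost no reads in segment 3. Tecta, known for the tectorial membrane of the inner ear, held 203 and 198 against 0.682 and 1.29 CPM (7.65 ± 0.38, adjusted p = 1.5e-05). Pla2g5, a secreted phospholipase A2 gene, held 118 and 132 against 0.596 and 0.658 CPM (7.64 ± 0.56, adjusted p = 8.8e-05). The remaining genes of this set, Xkr7, Clec18a, Nxph4, Myo16 and C1ql4, differed by 7.55 to 8.51 on the log2 scale, with adjusted p-values of 1.1e-05 to 0.0029.

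In the opposite direction, Gldn, encoding gliomedin, known from myelinated nerves, held 45.7 and 50.7 CPM in segment 3 and 2 counts in all in segment 1. That is a ratio of 1775 with a 95% interval of 491 to 14665 (adjusted p = 0.0056, and 0.0503 without the segment 1 library of batch 3017). Adtrp, encoding a hydrolase of fatty acid esters of hydroxy fatty acids, had 0 counts in both segment 1 libraries and 4.43 and 5.82 CPM in segment 3, at least 62.3-fold higher (adjusted p = 0.001). Syt14, a synaptotagmin family gene, had 3 counts in segment 1 and 6.11 and 5.66 CPM in segment 3, a ratio of 144 with a 95% interval of 48.9 to 701. Segment 1 was thus at or near 0 counts for these 3 genes. Rnase13, of the RNase A family, held 0.901 and 1.58 against 123 and 447 CPM (-7.73 ± 1.00, adjusted p = 0.0016), with the segment 3 libraries apart from each other. Elf5, an epithelial ETS transcription factor gene, held 0.0501 and 0.0894 against 4.83 and 15.9 CPM (-7.04 ± 0.67, adjusted p = 9.0e-05). In segment 1 it did not exceed 3 counts a library (0.0751 and 0.0894 CPM after scaling), so the size of its fold is uncertain. Slc34a2, a phosphate transporter gene, held 0.325 and 0.715 against 65.9 and 72.1 CPM (-7.08 ± 0.93, adjusted p = 0.0016). Nxpe5 (-7.93 ± 1.23, adjusted p = 0.0031), Sema5b (-7.31 ± 1.23, adjusted p = 0.0043) and Pate4 (-7.11 ± 0.92, adjusted p = 7.5e-04) made up the rest of this set with Defb15, Spink11 and Lypd8.

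A list of 21 initial segment genes, drawn up with results of these data known, was tested in full: 16 were called higher in segment 1 and 3 higher in segment 3, with a median of 5.44. The share of all genes tested called higher in segment 1 was 25.0%, and 26.2% were called higher in segment 3; the counts of each list stand beside these shares. Ovch2, an ovochymase-like serine protease gene, held 3113 and 3169 against 84 and 63.7 CPM (5.44 ± 0.39, adjusted p = 5.6e-05). The 3 members higher in segment 3 were Ggt1, Abcb5 and Penk, and Srd5a2 and Spint5 were not called. Penk, the proenkephalin gene, held 12.3 and 15 against 34.2 and 35.5 CPM (-1.36 ± 0.19, adjusted p = 4.9e-04). Of 28 caput secretory genes 26 were tested, and 16 were called higher in segment 3 and 4 higher in segment 1 (median -1.10; 7 higher in segment 1 with DESeq2). The 4 were Teddm2, Teddm1a, Crisp1 and Rnase11. Gpx5, the secreted glutathione peroxidase of the caput and the gene with the most counts in each of these libraries, held 26632 and 36425 CPM in segment 1 and 53559 and 57422 CPM in segment 3 (-0.83 ± 0.18, adjusted p = 0.0041). Its call was lost at 0.0602 without the segment 1 library of batch 3017, and at 0.0532 with the 6 control libraries alone. Adam7, a sperm-surface ADAM gene, held 17768 and 23096 against 17246 and 16046 CPM and was not called (0.29 ± 0.17, adjusted p = 0.19).

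The lipocalins, small carriers of lipophilic molecules, divided between the segments within a single gene cluster. Of 19 members 14 were tested, 7 called higher in segment 1 and 6 in segment 3, with a median of 1.64. On chromosome 2, 11 of them lie between 25466709 and 25825537 (GRCm38), a span of 358.8 kb, where 5 were called in each direction. In chromosome order Ptgds (-4.66), Lcn12 (-3.74) and C8g (-1.04) were higher in segment 3, Lcn8 (7.14) in segment 1, and Lcn5 (-5.17) and Lcn6 (-1.07) in segment 3. Lcn10 was not called, and Obp2a (2.47), Obp2b (6.43), Lcn3 and Lcn9 (7.15) were higher in segment 1. Lcn3 had 0 counts in segment 3 and was at least 15.2-fold higher in segment 1, at 1.78 and 0.715 CPM (adjusted p = 0.0044; 0.051 without the segment 1 library of batch 3017). With DESeq2, Lcn3 was not called (adjusted p = 0.206). Ptgds, encoding a prostaglandin D synthase, held 51.9 and 89.5 against 1684 and 1828 CPM (-4.66 ± 0.35, adjusted p = 4.2e-05). Lcn12 held 35.2 and 70.3 against 677 and 699.7 CPM (-3.74 ± 0.30, adjusted p = 6.3e-05). Lcn10 held 1784 and 2111 against 801 and 180.4 CPM, and its segment 3 libraries lay far apart (2.06 ± 0.98, adjusted p = 0.13, and 0.0494 with DESeq2).

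Lcn8 (chromosome 2, 25653120 to 25656217, plus strand) and Lcn5 (chromosome 2, 25657952 to 25661977, plus strand) are next to each other, 1.74 kb apart, and moved in opposite directions. Lcn5, encoding the epididymal retinoic acid-binding protein, held 52.9 and 87.2 CPM in segment 1 and 1218 and 3849 CPM in segment 3 (-5.17 ± 1.08, adjusted p = 0.0097). Its adjusted p was 0.0708 without the segment 1 library of batch 3017 and 0.0525 without the segment 1 library of batch 3097. The promoters of this pair are shown because neighbours with opposite patterns can be read side by side; the pair was chosen after its values were seen. Both are RefSeq sequences of 250 bases before the start on the plus strand of GRCm38.p6, at chr2:25652868-25653117 and chr2:25657702-25657951.
Lcn8: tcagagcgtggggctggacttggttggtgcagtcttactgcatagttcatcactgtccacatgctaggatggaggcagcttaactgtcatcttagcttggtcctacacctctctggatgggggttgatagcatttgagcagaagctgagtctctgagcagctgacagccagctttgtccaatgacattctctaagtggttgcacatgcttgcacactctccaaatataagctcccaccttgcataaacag
Lcn5: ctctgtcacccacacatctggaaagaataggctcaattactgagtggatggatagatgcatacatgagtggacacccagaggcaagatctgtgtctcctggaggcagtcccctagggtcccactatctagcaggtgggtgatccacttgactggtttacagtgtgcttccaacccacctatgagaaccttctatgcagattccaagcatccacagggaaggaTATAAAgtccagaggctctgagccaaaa
The Lcn8 window holds none of the 5 motifs, and the Lcn5 window holds a TATA box whose first base lies at -28 from the start.

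Of the RNase A family, 9 of 14 members were tested, with 3 called higher in segment 1 and 2 in segment 3 (median 0.19). Rnase10, Rnase11 and Rnase4 were higher in segment 1, and Rnase13 and Rnase6 in segment 3. Rnase4, whose gene model overlaps that of Ang so that their reads cannot be told apart with certainty, held 35.1 and 34.1 against 16.8 and 16.9 CPM (1.04 ± 0.15, adjusted p = 3.4e-04). Rnase6 held 2.43 and 3.49 against 11.6 and 15.3 CPM (-2.19 ± 0.18, adjusted p = 2.3e-05). Rnase9, the neighbour of Rnase10, held 8.21 and 14.7 CPM in segment 1 and 8.97 and 309.8 CPM in segment 3, where the library of batch 3097 alone was high, and was not called (-3.85 ± 2.55, adjusted p = 0.26). Cystatins, inhibitors of cysteine proteases and their reproductive relatives, went one way: of 9 tested members of 14, 6 were called higher in segment 1 and 0 in segment 3 (median 2.51). Cst8 held 3749.7 and 4129.9 against 29 and 26.2 CPM (7.17 ± 1.16, adjusted p = 0.0037). Cst12 held 1438 and 1372 against 6.45 and 11.1 CPM (7.39 ± 1.52, adjusted p = 0.01, but 0.073 without the segment 3 library of batch 3017 and 0.0637 without the segment 3 library of batch 3097). Cst11 held 3286 and 4104 against 848 and 421 CPM (2.51 ± 0.65, adjusted p = 0.019, but 0.0707 without the segment 1 library of batch 3017 and 0.0738 without the segment 1 library of batch 3097 and 0.0888 without the segment 3 library of batch 3097, and 0.0513 with no low-count filter). Between 148750358 and 148875692 on chromosome 2, 5 of the 6 tested cystatin genes were called higher in segment 1. Cst3, the widely expressed cystatin C gene, differed least of them, at 476 and 472 against 377 and 371 CPM (0.34 ± 0.09, adjusted p = 0.0087, and 0.0578 without the segment 1 library of batch 3017 and 0.0522 without the segment 1 library of batch 3097).

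Beta-defensins, cationic peptides of host defence that also coat sperm, were called about as often as all genes (25.0% and 26.2%): of 37 members 33 were tested, 7 called higher in segment 1 and 9 in segment 3 (median -0.67). Their genes lie in several clusters. In the cluster on chromosome 14 between 62977524 and 63058149, 3 of 5 tested members were higher in segment 1 and 0 in segment 3. In a chromosome 8 cluster between 21776599 and 21948850, 6 of 7 were higher in segment 3 and 0 in segment 1, with Defb1 not called. The cluster on chromosome 2 between 152459055 and 152623053 was mixed, with 3 of 11 higher in segment 1 and 1 in segment 3, and another on chromosome 8, between 18986233 and 19195212, had 2 of 8 higher in segment 3, Spag11a and Spag11b. Defb48 held 4146 and 4467 CPM in segment 1 and 13.8 and 26.9 CPM in segment 3 (7.7 ± 0.76, adjusted p = 4.3e-04). Defb25 held 1197 and 1359 against 49 and 7.82 CPM (5.9 ± 0.90, adjusted p = 0.0029; 0.177 with the 4 libraries alone). Defb15 held 0.476 and 1.37 against 204 and 478 CPM (-8.51 ± 1.55, adjusted p = 0.0065, but 0.0555 without the segment 1 library of batch 3017 and 0.0504 without the segment 1 library of batch 3097). Spag11a, a beta-defensin-like gene, held 6.01 and 12.1 against 88.7 and 63.2 CPM (-3.11 ± 0.43, adjusted p = 0.0015; 0.12 with the 4 libraries alone). Spag11b, at 2123 and 2503 against 4925 and 3475 CPM (-0.83 ± 0.20, adjusted p = 0.0075), lost its call at 0.0973 without the segment 1 library of batch 3017 and 0.0702 without the segment 3 library of batch 3017. These counts moved with single libraries. Without the segment 1 library of batch 3017, 2 members remained called higher in segment 3, and without that of batch 3097 there were 5; without the segment 3 library of batch 3097 the counts were 4 and 5 and the median was 0.23. Without the segment 1 library of batch 3097, 3 members were called higher in segment 1, and 4 were with library totals in place of TMM, with a minimum count of 50 or with the 4 libraries alone.

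Defb48 and Defb15 were the members of this family with the largest fold changes in either direction, and their promoters are shown for that comparison. Both are RefSeq sequences of 250 bases before the start on the minus strand of GRCm38.p6, at chr14:62984511-62984760 and chr8:21932711-21932960, 5′ to 3′ along the gene.
Defb48: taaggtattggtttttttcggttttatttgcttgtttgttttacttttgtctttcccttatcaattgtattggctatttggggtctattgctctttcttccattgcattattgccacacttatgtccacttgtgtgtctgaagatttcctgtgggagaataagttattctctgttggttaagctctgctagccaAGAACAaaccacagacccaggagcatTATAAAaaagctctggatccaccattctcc
Defb15: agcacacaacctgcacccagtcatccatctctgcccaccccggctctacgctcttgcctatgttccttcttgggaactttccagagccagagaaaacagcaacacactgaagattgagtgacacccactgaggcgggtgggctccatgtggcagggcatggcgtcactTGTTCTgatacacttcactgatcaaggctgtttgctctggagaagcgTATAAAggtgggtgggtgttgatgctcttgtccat
Each holds a TATA box, with its first base at -30 in Defb48 and -35 in Defb15. Each also holds the letters of a steroid receptor half-site, at -56 on the gene's strand in Defb48 and at -82 on the other strand in Defb15. The pair thus shares both motifs, and their bearing on the levels was not tested.

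**Figure D3:**
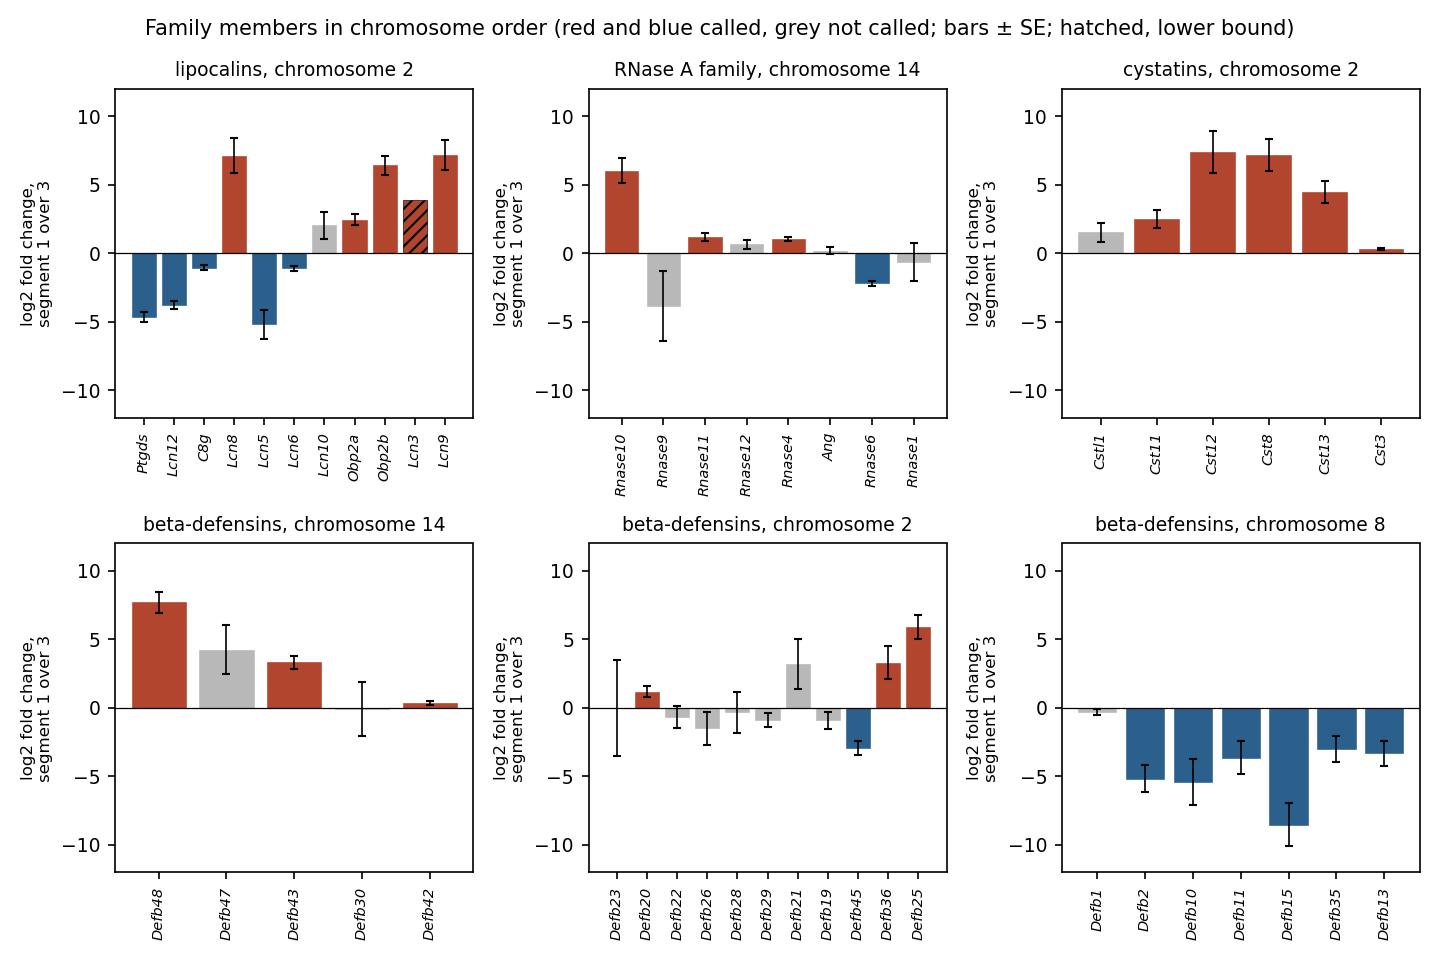
Bars are log2 fold changes (segment 1 over segment 3) of tested family members in chromosome order, with SE; red bars were called higher in segment 1, blue bars higher in segment 3 and grey bars were not called. The hatched bar, Lcn3, is a lower bound with no SE. The lipocalin panel holds both signs, with Lcn8 positive between negative neighbours and positive bars from Lcn10 onwards. In the other panels, 5 of 6 cystatins are red, and 6 of 7 beta-defensins of the chromosome 8 cluster are blue.

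Protease inhibitors, which hold back proteolysis in the lumen, were mostly higher in segment 3: of 34 tested among 41, 19 were called higher in segment 3 and 5 in segment 1 (median -0.83; 26.2% of all genes tested were called higher in segment 3). Spink11 held 3.0 and 4.8 CPM in segment 1 and 531 and 1345 CPM in segment 3 (-7.82 ± 1.61, adjusted p = 0.01), although its adjusted p was 0.0728 without the segment 1 library of batch 3017 and 0.0739 without the segment 1 library of batch 3097. Spink12 held 13.9 and 24 against 455 and 692 CPM (-4.94 ± 0.62, adjusted p = 0.0011). Wfdc9, a WAP domain gene, held 3.13 and 5.27 against 111 and 167 CPM (-5.05 ± 0.55, adjusted p = 6.5e-04). Both segment 3 libraries exceeded both segment 1 libraries in all 3 genes, which were picked among genes called. Of 15 tested members of the Wfdc and Spint cluster on chromosome 2, between 164214454 and 164745931, 9 were higher in segment 3 and 3 in segment 1. Wfdc6a, at 78.3 and 94.8 against 40.7 and 37.6 CPM (1.15 ± 0.30, adjusted p = 0.018), had the highest level in CPM among those higher in segment 1, and lost its call at 0.102 without the segment 1 library of batch 3097 and 0.0852 without the segment 3 library of batch 3017 and 0.0969 without the segment 3 library of batch 3097, and at 0.053 with no low-count filter. Without the segment 1 library of batch 3097, 3 members of the list were called higher in segment 1.

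Sperm-surface ADAM and CRISP genes were called in both directions, 6 of 16 tested higher in segment 1 and 7 in segment 3 (17 members, median 0.09, or -0.02 without the segment 1 library of batch 3097). Crisp1, encoding a cysteine-rich protein that coats sperm, held 910.3 and 845 CPM in segment 1 and 5.85 and 23.5 CPM in segment 3 (5.89 ± 0.88, adjusted p = 0.0026; 0.104 with the 4 libraries alone). Crisp4, a related gene, held 421 and 447 against 18.3 and 94.3 CPM and was not called (2.84 ± 1.15, adjusted p = 0.092), with an adjusted p of 0.029 without the segment 3 library of batch 3097 and 0.011 with DESeq2. Adam2, Adam3, Adam5 and Crisp2, which are germ cell genes, were among those higher in segment 3, and Crisp2 held 0.776 and 1.28 against 17.9 and 12.6 CPM (-3.91 ± 0.32, adjusted p = 2.5e-05). Of the Ly6, Lypd and Pate family, 19 of 36 were tested, 6 called higher in segment 1 and 8 in segment 3 (median -0.48). Ly6g5b held 3050.5 and 3020.1 against 41 and 52.4 CPM (6.01 ± 0.99, adjusted p = 0.0039), and Lypd3 held 5.13 and 5.01 against 0.994 and 0.764 CPM (2.54 ± 0.31, adjusted p = 1.6e-04). The count higher in segment 3 was 5 and 4 without the libraries of batch 3017 of segments 1 and 3, and 5 with a minimum count of 50, which also turned the median to 0.07.

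Genes of the ROS1 and ERK axis were higher in segment 1. Ros1 held 698 and 722 CPM in segment 1 and 228 and 252 CPM in segment 3 (1.56 ± 0.24, adjusted p = 0.0012). Of 20 feedback regulators and targets of ERK, 19 were tested and 16 were called higher in segment 1, with a median of 2.93; 25.0% of all genes were called in that direction. Etv4, a PEA3-type ETS factor gene downstream of ERK, held 234 and 165 against 1.25 and 1.61 CPM (7.08 ± 0.67, adjusted p = 3.7e-04). Etv5, of the same subfamily, held 966 and 810.2 against 31.9 and 7.53 CPM (5.73 ± 0.93, adjusted p = 0.0038; 0.0756 with the 4 libraries alone). Dusp6, a phosphatase that switches ERK off, held 349 and 251 against 14.1 and 6.87 CPM (4.89 ± 0.47, adjusted p = 3.7e-04). The fold of Ros1, 2.96, was far smaller than those of Etv4, 135, and Dusp6, 29.7, although the differences between these folds were not tested. The feedback inhibitors Spry1 (2.95 ± 0.20), Spry4 (4.47 ± 0.53), Dusp4 (4.66 ± 0.49) and Dusp5 (3.38 ± 0.47) were also higher in segment 1, with adjusted p-values of 1.8e-05 to 0.0016. The members higher in segment 3 were Il17rd, at 2.25 and 2.83 against 12.1 and 8.98 CPM (-2.09 ± 0.31, adjusted p = 5.3e-04), and Myc, at 0.976 and 0.924 against 3.18 and 2.61 CPM (-1.6 ± 0.27, adjusted p = 9.4e-04). Dusp7 was not called.

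Growth factors and their receptors were called in both directions, 12 of 28 tested higher in segment 1 and 8 in segment 3 (31 members, median 0.41). The median was 0.21 without the segment 1 library of batch 3097, 0.05 and 0.07 with the 4 libraries and the 6 control libraries alone, and 0.04 with a minimum count of 50. Bmp7, a bone morphogenetic protein gene, held 242 and 159.6 against 4.94 and 6.56 CPM (5.09 ± 0.27, adjusted p = 1.2e-05). Hbegf, an EGF receptor ligand, held 32.6 and 23.1 against 2.24 and 2.08 CPM (3.67 ± 0.24, adjusted p = 1.0e-05), and Met, the receptor for hepatocyte growth factor, 85.1 and 82.6 against 11.9 and 10.7 CPM (2.9 ± 0.30, adjusted p = 2.2e-04). Other EGF receptor ligands and the receptor went the other way. Egf held 5.38 and 5.84 against 22.8 and 35.3 CPM (-2.36 ± 0.26, adjusted p = 2.1e-04) and Tgfa held 5.81 and 5.81 against 17.9 and 21.2 CPM (-1.74 ± 0.13, adjusted p = 1.7e-05), and Egfr, Erbb2 and Erbb3 were called higher in segment 3. Vegfa, the endothelial growth factor, held 198 and 161 against 77.8 and 58.9 CPM (1.4 ± 0.20, adjusted p = 7.4e-04).

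Androgen and steroid genes were divided, 6 of 13 tested higher in segment 1 and 4 in segment 3 (18 members, median 0.29); without either library of batch 3097 the count for segment 1 was 3. Srd5a1, a 5-alpha reductase gene whose product makes dihydrotestosterone, held 63.6 and 54.5 against 6.99 and 3.66 CPM (3.53 ± 0.43, adjusted p = 6.9e-04). Srd5a2, its isozyme, held 126 and 203 against 150.4 and 152 CPM and was not called (0.1 ± 0.25, adjusted p = 0.76). Both estrogen receptor genes were higher in segment 3. Esr1 held 29.6 and 30.1 against 78.4 and 74.8 CPM (-1.36 ± 0.09, adjusted p = 1.1e-05), and Esr2 held 4.56 and 6.35 against 20.2 and 14.3 CPM (-1.68 ± 0.21, adjusted p = 2.2e-04).

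Hox genes, which specify position along the body and its ducts, were tested in 29 of 32 cases, with 11 called higher in segment 1 and 7 in segment 3 (median 0.21). On chromosome 11, 5 of the 8 Hoxb genes were higher in segment 1 and 1, Hoxb4, in segment 3. Hoxb7 held 312 and 279 against 97.5 and 113 CPM (1.49 ± 0.10, adjusted p = 1.1e-05) and Hoxb6 held 373 and 366 against 182 and 208 CPM (0.92 ± 0.09, adjusted p = 4.8e-05). The Hoxd cluster on chromosome 2 changed sign along its length. Within it, the Hoxd4 gene model lies inside that of Hoxd3, so their reads cannot be told apart with certainty. Hoxd10 (2.79; adjusted p = 0.013, but 0.0681 without the segment 1 library of batch 3017 and 0.0846 without the segment 3 library of batch 3097) and Hoxd9 (0.89) were higher in segment 1, Hoxd8 (0.04) was not called, and Hoxd4 (-0.9), Hoxd3 (-1.56) and Hoxd1 (-2.41) were higher in segment 3. Hoxa9 held 9.74 and 13.2 against 1.25 and 0.527 CPM (3.61 ± 0.85, adjusted p = 0.012, but 0.0574 without the segment 1 library of batch 3017 and 0.0602 without the segment 3 library of batch 3097). Without the segment 3 library of batch 3097, 7 Hox genes were called higher in segment 1.

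Transcription factors of the duct split evenly, 7 of 21 tested higher in segment 1 and 8 in segment 3 (25 members, median -0.04, a sign that turned in 3 of the 4 fits that left out a library); 5 were called higher in segment 3 without the segment 1 library of batch 3017 or either segment 3 library. Over all genes tested, 25.0% were called higher in segment 1 and 26.2% in segment 3. Cebpb held 117 and 54.4 against 13.7 and 3.45 CPM (3.44 ± 0.41, adjusted p = 7.0e-04), with segment 1 of batch 3017 above that of batch 3097. Runx1 held 154 and 99.8 against 39.4 and 25.2 CPM (1.97 ± 0.18, adjusted p = 6.9e-05) and Pax8, needed for duct development, 284 and 201 against 87.3 and 94 CPM (1.4 ± 0.14, adjusted p = 7.6e-05). Of the ETS family of Elf5, Elf3 held 108 and 109 against 407 and 431 CPM (-1.95 ± 0.37, adjusted p = 0.0044) and Ehf held 106 and 128 against 279 and 291 CPM (-1.29 ± 0.14, adjusted p = 1.0e-04). PEA3-type members Etv1 (3.52 ± 0.54, adjusted p = 0.0025), Etv4 and Etv5 were all higher in segment 1.

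Transporters of ions, bicarbonate and water set the luminal fluid, and 15 of 31 tested were higher in segment 1 and 11 in segment 3 (37 members, median 0.38); without either library of batch 3017, 6 were called higher in segment 3. Cftr, the chloride and bicarbonate channel, held 211 and 194 against 15.8 and 19.9 CPM (3.55 ± 0.33, adjusted p = 1.9e-04). Car2, a cytosolic carbonic anhydrase gene, held 58.3 and 54.5 against 12.8 and 8.9 CPM (2.39 ± 0.17, adjusted p = 1.7e-05). Car12, a membrane-bound carbonic anhydrase gene, went the other way, with 6.58 and 10.2 against 119 and 112 CPM (-3.8 ± 0.25, adjusted p = 2.8e-05). The 2 carbonic anhydrase genes thus had opposite patterns. Aqp9, a water and glycerol channel of principal cells, held 162 and 155 against 7.61 and 15.1 CPM (3.69 ± 0.99, adjusted p = 0.026). Its call was lost at 0.0562 without the segment 1 library of batch 3017 and 0.12 without the segment 1 library of batch 3097 and 0.102 without the segment 3 library of batch 3017, at 0.0855 with the 6 control libraries and at 0.0518 with no low-count filter. Slc9a3, a sodium-proton exchanger gene, was near the detection floor, at 0.901 and 0.536 against 0.0568 and 0.105 CPM (3.19 ± 0.85, adjusted p = 0.011; 0.0931 without the segment 1 library of batch 3017 and 0.0706 without the segment 3 library of batch 3017 and 0.0648 without the segment 3 library of batch 3097). Car4, also low, held 0.300 and 0.655 against 0.142 and 0.474 CPM and was not called (adjusted p = 0.72).

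Amino acid and organic solute transporters were called evenly, 10 of 30 tested in each direction (32 members, median 0.20), beside 25.0% and 26.2% of all genes. Slc7a8, a neutral amino acid transporter gene, held 248 and 197 against 58 and 70.2 CPM (1.79 ± 0.13, adjusted p = 1.5e-05). Slc7a2, a cationic amino acid transporter gene, held 1.33 and 2.15 against 24.5 and 25.9 CPM (-3.89 ± 0.56, adjusted p = 0.0016), Slc7a9 held 0.926 and 0.655 against 7.16 and 12.1 CPM (-3.54 ± 0.63, adjusted p = 0.0032) and the monocarboxylate transporter gene Slc16a1 held 14 and 13.2 against 48 and 34.8 CPM (-1.59 ± 0.12, adjusted p = 1.5e-05).

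Glutathione and redox genes were more often called higher in segment 3, 17 of 34 tested against 8 higher in segment 1 (36 members, median -0.26). Genes of the gamma-glutamyl transferase family parted: Ggt1 held 18.7 and 29.5 against 348 and 419 CPM (-4.0 ± 0.46, adjusted p = 6.3e-04), and Ggt7 held 186 and 133 against 6.11 and 3.82 CPM (5.03 ± 0.58, adjusted p = 8.2e-04). Gstm5, a glutathione transferase gene, held 21.8 and 30.5 against 122 and 158 CPM (-2.42 ± 0.15, adjusted p = 1.0e-05). Gpx3, a secreted peroxidase gene, held 38.5 and 38.4 against 501 and 563 CPM (-3.79 ± 0.56, adjusted p = 0.0021). Txn1, encoding thioredoxin, was higher in segment 1, at 283 and 229 against 87.2 and 83.7 CPM (1.58 ± 0.09, adjusted p = 7.0e-06). Of the retinoid genes, 5 of 19 tested were higher in segment 1 and 7 in segment 3 (21 members, median 0.27), beside 25.0% and 26.2% of all genes. Stra6, a receptor for retinol-binding protein, held 1.98 and 3.28 against 17.2 and 28.2 CPM (-3.11 ± 0.41, adjusted p = 9.2e-04), and the receptor genes Rara (-1.25 ± 0.11, adjusted p = 2.7e-05) and Rxra (-0.76 ± 0.12, adjusted p = 6.3e-04) were higher in segment 3 as well. The retinoid count higher in segment 1 was 3 without the segment 1 library of batch 3017, 2 without that of batch 3097, 3 without the segment 3 library of batch 3097 and 3 with a minimum count of 50.

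Cholesterol synthesis genes were higher in segment 1 in 18 of 22 cases, against 25.0% of all genes, with a median of 0.89; all 22 were tested. Dhcr7, encoding the last reductase of the pathway, held 25 and 25.7 against 1.02 and 0.632 CPM (4.95 ± 0.41, adjusted p = 3.6e-05). Tm7sf2 held 116 and 125 against 46.2 and 59.9 CPM (1.19 ± 0.09, adjusted p = 1.6e-05). Most of the differences were small next to those of the secretory genes, and the 2 members higher in segment 3 were Fdps and Ebp. That count of 2 was 1 with DESeq2, with no batch term, or without either segment 1 library or the segment 3 library of batch 3097.

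Of 24 tested genes of protein folding in the endoplasmic reticulum, 8 were higher in segment 1 and 3 in segment 3 (median 0.12), beside 25.0% and 26.2% of all genes. Xbp1, a transcription factor gene of the unfolded protein response, held 249 and 238 against 150.5 and 171 CPM (0.6 ± 0.08, adjusted p = 3.6e-04) and Dnajc3 638 and 640.5 against 405 and 364 CPM (0.74 ± 0.10, adjusted p = 2.8e-04). Ddit3, encoding the stress factor CHOP, held 6.94 and 5.75 against 13.9 and 12 CPM (-1.03 ± 0.22, adjusted p = 0.0035). The count of 3 was 5 with DESeq2, with a minimum count of 50 or without segment 2, and 6 with library totals in place of TMM. Ribosomal protein genes were higher in segment 3 in 18 of 24 cases and in segment 1 in 0 (median -0.45), with Rpl10a at 355 and 332 against 599 and 661 CPM (-0.88 ± 0.12, adjusted p = 2.9e-04). These small differences depended on single libraries: 7 and 3 were called without the segment 1 libraries of batches 3017 and 3097, 2 without the segment 3 library of batch 3097, and 11 with no batch term.

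Proliferation genes were low but higher in segment 1 in 19 of 25 tested cases (median 1.65), with 1, Mcm2, called higher in segment 3; without the segment 3 library of batch 3097 the 19 became 11. Mcm2, at 31.3 and 35.2 against 39.6 and 40.3 CPM (-0.27 ± 0.08, adjusted p = 0.024), had an adjusted p of 0.141 without the segment 1 library of batch 3017 and 0.075 without the segment 1 library of batch 3097 and 0.173 without the segment 3 library of batch 3017. Mcm2 was also not called with DESeq2 (adjusted p = 0.0704), with no batch term (0.101) or with the 6 control libraries (0.0739). Ccnb1, a mitotic cyclin gene, held 6.91 and 8.79 against 1.48 and 2.26 CPM (2.1 ± 0.31, adjusted p = 4.9e-04). Kif11 held 6.48 and 7.6 against 1.36 and 1.84 CPM (2.15 ± 0.38, adjusted p = 0.0013), and Rrm2, a ribonucleotide reductase subunit gene, 6.01 and 6.67 against 0.710 and 1.08 CPM (2.81 ± 0.53, adjusted p = 0.0023). Immediate early genes were called 8 times higher in segment 1 and 5 times in segment 3 among 16 tested of 17 (median 0.29), with 5 in segment 1 without the segment 3 library of batch 3017. Ier2 held 81.4 and 64 against 28 and 28.6 CPM (1.35 ± 0.11, adjusted p = 2.6e-05), while Atf3 held 1.15 and 1.37 against 12.4 and 14.5 CPM (-3.42 ± 0.42, adjusted p = 3.6e-04) and Fosl2 12.3 and 10.7 against 32.9 and 50.6 CPM (-1.86 ± 0.22, adjusted p = 2.7e-04). Of 24 interferon response genes, 8 were higher in segment 1 and 6 in segment 3 (median 0.52), and each count dropped without some library, to 5 without the segment 1 library of batch 3097 or the segment 3 library of batch 3017, and to 3 without the segment 1 library of batch 3017 or the segment 3 library of batch 3097. The shares of all genes called higher in segments 1 and 3 were 25.0% and 26.2%. Ifitm3 held 140.2 and 126 against 26.9 and 26.3 CPM (2.32 ± 0.16, adjusted p = 1.5e-05) and the immunoproteasome gene Psmb8 6.96 and 8.16 against 18.3 and 19.2 CPM (-1.31 ± 0.14, adjusted p = 8.2e-05).

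Markers of the cell types of the duct wall and of the tissue around it also differed, and in bulk RNA fewer cells of a type and less RNA per cell cannot be told apart. General epithelium markers balanced, with 5 of 15 called in each direction (median 0.06, or -0.02 with library totals; 3 in segment 1 without the segment 1 library of batch 3017). Cdh16, a kidney-type cadherin gene, held 63 and 80.4 against 705 and 831 CPM (-3.43 ± 0.45, adjusted p = 0.001) and Krt19 held 58.9 and 77.3 against 513 and 624 CPM (-3.07 ± 0.18, adjusted p = 7.7e-06). Basal cell markers were higher in segment 1 in 7 of 11 tested cases (13 members, median 1.24), with Cldn1 at 99.4 and 98.3 against 30.7 and 30.3 CPM (1.7 ± 0.15, adjusted p = 3.2e-05) and Trp63, the defining factor of basal cells, at 111 and 97.2 against 39.2 and 38.5 CPM (1.42 ± 0.13, adjusted p = 3.7e-05). Krt5, a basal keratin gene, held 69.2 and 80.6 against 78.3 and 107 CPM, levels that overlap between the groups although each batch has the same direction (-0.29 ± 0.09, adjusted p = 0.022). Its adjusted p was 0.174 without the segment 1 library of batch 3097 and 0.135 without the segment 3 library of batch 3097, and 0.312 with no batch term.

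Markers of clear and narrow cells, which acidify the lumen, were called higher in segment 3 in 8 of 14 tested cases (15 members, median -1.09; 5 without the segment 1 library of batch 3017). Their summed level was 326 and 425 CPM in segment 1 and 1191 and 1268 CPM in segment 3. Rhcg, Foxi1 and Car12 carried nearly all of that difference. Atp6v0d2, Atp6v1c2, Car4, Slc26a4 and Slc4a9 were not called. Foxi1, the transcription factor of these cells, held 14.1 and 25.6 against 131 and 154 CPM (-2.86 ± 0.23, adjusted p = 5.8e-05), and Rhcg, an ammonia transporter gene, 64.2 and 121 against 705 and 738 CPM (-3.0 ± 0.27, adjusted p = 7.2e-05). Car2 was the only tested marker of the list called higher in segment 1, and without the segment 1 library of batch 3097 there were 2. Car12 is shared with the transport list, so its difference moved with these markers, and their part in it was not tested.

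Endothelial markers were higher in segment 1 in 13 of 16 tested cases and in segment 3 in 0 (17 members, median 1.61), with a summed level of 183 and 173 CPM against 57.4 and 50.7 CPM. Kdr, a receptor for vascular endothelial growth factor, held 23.8 and 25.7 against 1.53 and 1.4 CPM (4.08 ± 0.51, adjusted p = 4.2e-04), Plvap, a protein of fenestrated endothelium, 19.9 and 15.7 against 0.682 and 1.45 CPM (4.03 ± 0.41, adjusted p = 7.2e-05), and Flt1 and Tie1 differed by 2.76 ± 0.26 (adjusted p = 4.2e-05) and 2.12 ± 0.20 (adjusted p = 4.4e-05). Vegfa moved with these markers, and their part in that difference was not tested. Macrophage and dendritic cell markers were called higher in segment 1 in 12 of 23 cases (median 0.91), among them C1qb at 21.2 and 28.1 against 9.68 and 13.2 CPM (1.11 ± 0.11, adjusted p = 5.9e-05). The antigen presentation genes H2-Aa, H2-Ab1, H2-Eb1 and Cd74 were not called, nor were Itgax, Xcr1, Ccr2, Cd163 and Itgam. The exceptions called higher in segment 3 were Cd68, at 4.86 and 7.45 against 52.6 and 56.7 CPM (-3.2 ± 0.51, adjusted p = 0.0029), and Cd14, at 2.15 and 2.26 against 8.97 and 10.3 CPM (-2.12 ± 0.20, adjusted p = 4.6e-05); with the 4 libraries alone there were 4. The summed level of the list was 289 and 311 CPM against 237 and 258 CPM.

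Smooth muscle markers fell into unequal groups, 7 of 13 called higher in segment 3 and 2, Actg2 and Mylk, higher in segment 1 (median -0.42). Acta2, the common smooth muscle actin gene, held 88.2 and 107 against 143 and 168 CPM (-0.68 ± 0.10, adjusted p = 4.1e-04), Cnn1 differed by -0.87 ± 0.10 (adjusted p = 1.3e-04) and Hhip, which modulates hedgehog signalling, by -1.7 ± 0.19 (adjusted p = 8.9e-05). Actg2, the enteric smooth muscle actin gene, held 2871 and 2856 CPM in segment 1 and 26.5 and 29.4 CPM in segment 3 (6.67 ± 0.89, adjusted p = 0.0017), and was thus 102-fold higher where the other contractile markers were lower or not called, apart from Mylk at 1.81 ± 0.24 (adjusted p = 6.5e-04). A similar exception stood among T and NK cell markers: 10 of 14 were tested and 1 was called, Klrb1c, at 554 and 424 CPM in segment 1 and 10.9 and 7.35 CPM in segment 3 (5.75 ± 0.81, adjusted p = 0.0021). The pan-T gene Cd3e held 2.18 and 1.58 against 1.65 and 0.764 CPM (0.7 ± 0.32, adjusted p = 0.096) and Nkg7, of cytotoxic cells, held 0 and 0.268 against 0.227 and 0.184 CPM (adjusted p = 0.55, and 0.022 without the segment 1 library of batch 3097, which leaves segment 1 at 0 counts). The list's median was 0.28, or -0.31 with the 6 control libraries. Fibroblast and matrix markers were called near the shares of all genes (25.0% and 26.2%), 5 of 22 higher in segment 1 and 4 in segment 3 (median -0.27). Pdgfra held 527 and 511 against 31.4 and 21 CPM (4.34 ± 0.67, adjusted p = 0.0031) while Dcn, a matrix proteoglycan gene, held 34.8 and 46.5 against 55.6 and 61.9 CPM (-0.55 ± 0.12, adjusted p = 0.0047; 0.0794 with no batch term) and Tcf21 2.78 and 3.75 against 7.13 and 9.32 CPM (-1.33 ± 0.24, adjusted p = 0.0014). Fibroblast calls for segment 1 numbered 1 and 2 without the segment 1 libraries of batches 3017 and 3097, 3 and 1 without those of segment 3, and 3 with library totals, with a minimum count of 50 or with the 6 control libraries.

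Sperm and germ cell transcripts were higher in segment 3 in 25 of 26 tested cases among 30, with a median of -3.35 and Hook1 alone not called. Smcp, a protein of the sperm mitochondrial capsule, held 1.63 and 2.47 CPM in segment 1 and 53.5 and 22.6 CPM in segment 3 (-4.16 ± 0.47, adjusted p = 4.3e-04; 0.084 with the 4 libraries alone). Odf1, a component of outer dense fibres in the sperm tail, held 1.98 and 2.56 against 54.8 and 27.2 CPM (-4.15 ± 0.34, adjusted p = 5.9e-05). Prm1, encoding a protamine, held 1.28 and 1.46 against 14.6 and 7.4 CPM (-2.94 ± 0.32, adjusted p = 9.3e-05), and Gapdhs and Tssk6 differed by -3.51 ± 0.28 (adjusted p = 2.1e-05) and -3.16 ± 0.30 (adjusted p = 4.5e-05). In each of these genes the segment 3 library of batch 3017 lay above that of batch 3097, and both lay above segment 1. The germ cell genes among the ADAM and CRISP list moved with them, and the part of sperm RNA in those differences was not tested.

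The remaining marker lists were short or low. Multiciliated cell markers, of efferent ducts, had 6 of 21 higher in segment 1 and 3 in segment 3 (median 0.38): Foxj1, their master regulator, held 7.66 and 5.07 against 1.96 and 1.61 CPM (1.83 ± 0.29, adjusted p = 7.1e-04), Dnah5 6.31 and 8.13 against 1.73 and 1.69 CPM (2.06 ± 0.46, adjusted p = 0.0054, and 0.051 without the segment 3 library of batch 3097), and Ccno 72.4 and 69.9 against 139.9 and 113 CPM (-0.83 ± 0.16, adjusted p = 0.0032). Mcidas and Rsph1 were also called higher in segment 3, and 12 multiciliated cell markers were not called. The summed level of that list was 143 and 131 CPM in segment 1 and 195 and 161 CPM in segment 3. Ccno made up the largest part of it. Of all genes, 25.0% were called higher in segment 1 and 26.2% in segment 3. Of 8 testis somatic markers tested, 1, Sox9, was higher in segment 1 and 3 in segment 3 (11 members, median -0.36, or 0.04 without the segment 1 library of batch 3097), with Cyp17a1 at 1.08 and 1.46 against 3.27 and 8.27 CPM (-2.18 ± 0.47, adjusted p = 0.0052) and Cldn11 at 2.23 and 2.65 against 6.02 and 6.45 CPM (-1.36 ± 0.20, adjusted p = 5.1e-04). Of 10 nerve and glia markers 4 were tested and all 4 were higher in segment 3 (median -2.40; 2 without either segment 1 library), S100b among them at 2.2 and 2.26 against 7.53 and 12 CPM (-2.07 ± 0.37, adjusted p = 0.0023). Red blood cell markers had 3 of 6 tested higher in segment 1 (7 members, median 1.96), with the beta-globin gene Hbb-bs at 8.86 and 5.45 against 2.93 and 0.816 CPM (2.09 ± 0.31, adjusted p = 5.2e-04; 0.0501 with no batch term). Of 5 mesothelium markers 2 were tested, with a median of 1.39, and Upk1b was called, at 184 and 192 against 38.5 and 53.5 CPM (2.04 ± 0.30, adjusted p = 0.0017). B cell markers had 1 of 4 tested called, Cd79b, higher in segment 1 at 0.351 and 0.238 against 0.0568 and 0.0527 CPM (2.47 ± 0.82, adjusted p = 0.03; 8 members, median 0.71), with 0.207 without the segment 1 library of batch 3017 and 0.0706 without the segment 3 library of batch 3017 and 0.198 without the segment 3 library of batch 3097. Neutrophil markers had 1 tested of 6, Csf3r, at 2.05 and 1.28 against 0.511 and 0.369 CPM (1.91 ± 0.47, adjusted p = 0.0076), but 0.0706 without the segment 1 library of batch 3017 and 0.0549 without the segment 3 library of batch 3097. Cd79b was also not called with DESeq2 (adjusted p = 0.0601), with no batch term (0.0631) or with the 6 control libraries (0.0676). None of 6 adipocyte markers passed the filter on low counts.

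**Figure D4:**
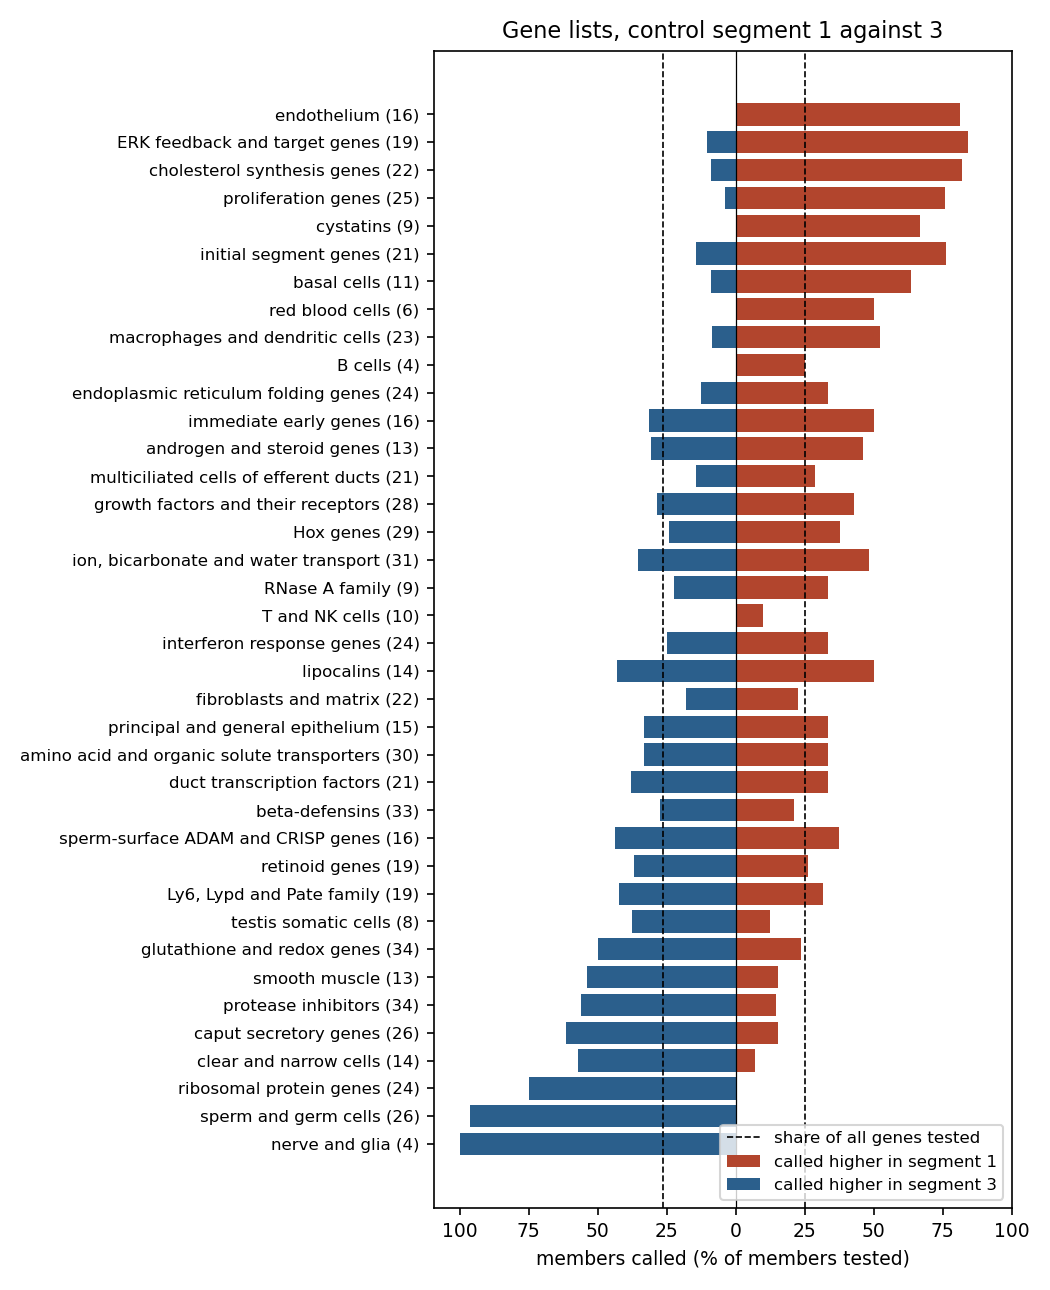
Bars give the share of tested members (%, number tested in brackets) called higher in segment 1 (red, to the right) and higher in segment 3 (blue, to the left) for each list with at least 4 tested members; dashed lines are the shares of all genes tested, 25.0% and 26.2%. The ERK, cholesterol and endothelium lists reach furthest to the right, and nerve and glia, sperm and germ cells, and ribosomal protein genes furthest to the left.

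Control segment 2 lies between the segments compared, and its libraries placed the change along the duct. For each called gene of at least 5 CPM and at least a 2-fold difference, the position of segment 2 was taken on the log2 scale, with 0 at segment 1 and 1 at segment 3 of the same batch. Among the 1219 genes higher in segment 1 the median position was 0.63 in batch 3017 and 0.86 in batch 3097. Among the 1250 genes higher in segment 3 it was 0.68 and 0.91. Segment 2 was thus nearer segment 3 for most genes in either batch, and the segment 2 library of batch 3097 more so: 34.7% of the first set were nearer segment 1 in batch 3017 and 7.96% in batch 3097, against 27.3% and 5.60% of the second. Both libraries of segment 2 stood far apart from each other, where that ratio was 115.5, so each batch is given on its own.

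Some genes had already dropped in segment 2 and others had not. Tecta held 203 and 198 CPM in segment 1, 1.2 and 0.708 CPM in segment 2 and 0.682 and 1.29 CPM in segment 3. Cftr was lowest in segment 2, at 5.54 and 8.85 CPM. Mfge8, by contrast, held 14931 and 5355 CPM in segment 2, level with segment 1 in batch 3017 and between the segments in batch 3097. Genes of segment 3 showed the same range. Slc38a5 held 6921 and 9766 CPM in segment 2 and lay close to its segment 3 level in both batches, Clu held 2252 and 10051 CPM, and Spink11 held 3.48 and 106 CPM, which in batch 3017 was no higher than segment 1 of batch 3097. Prm1, at 21.1 and 15.4 CPM in segment 2, was above its segment 3 level in both batches.

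**Figure D5:**
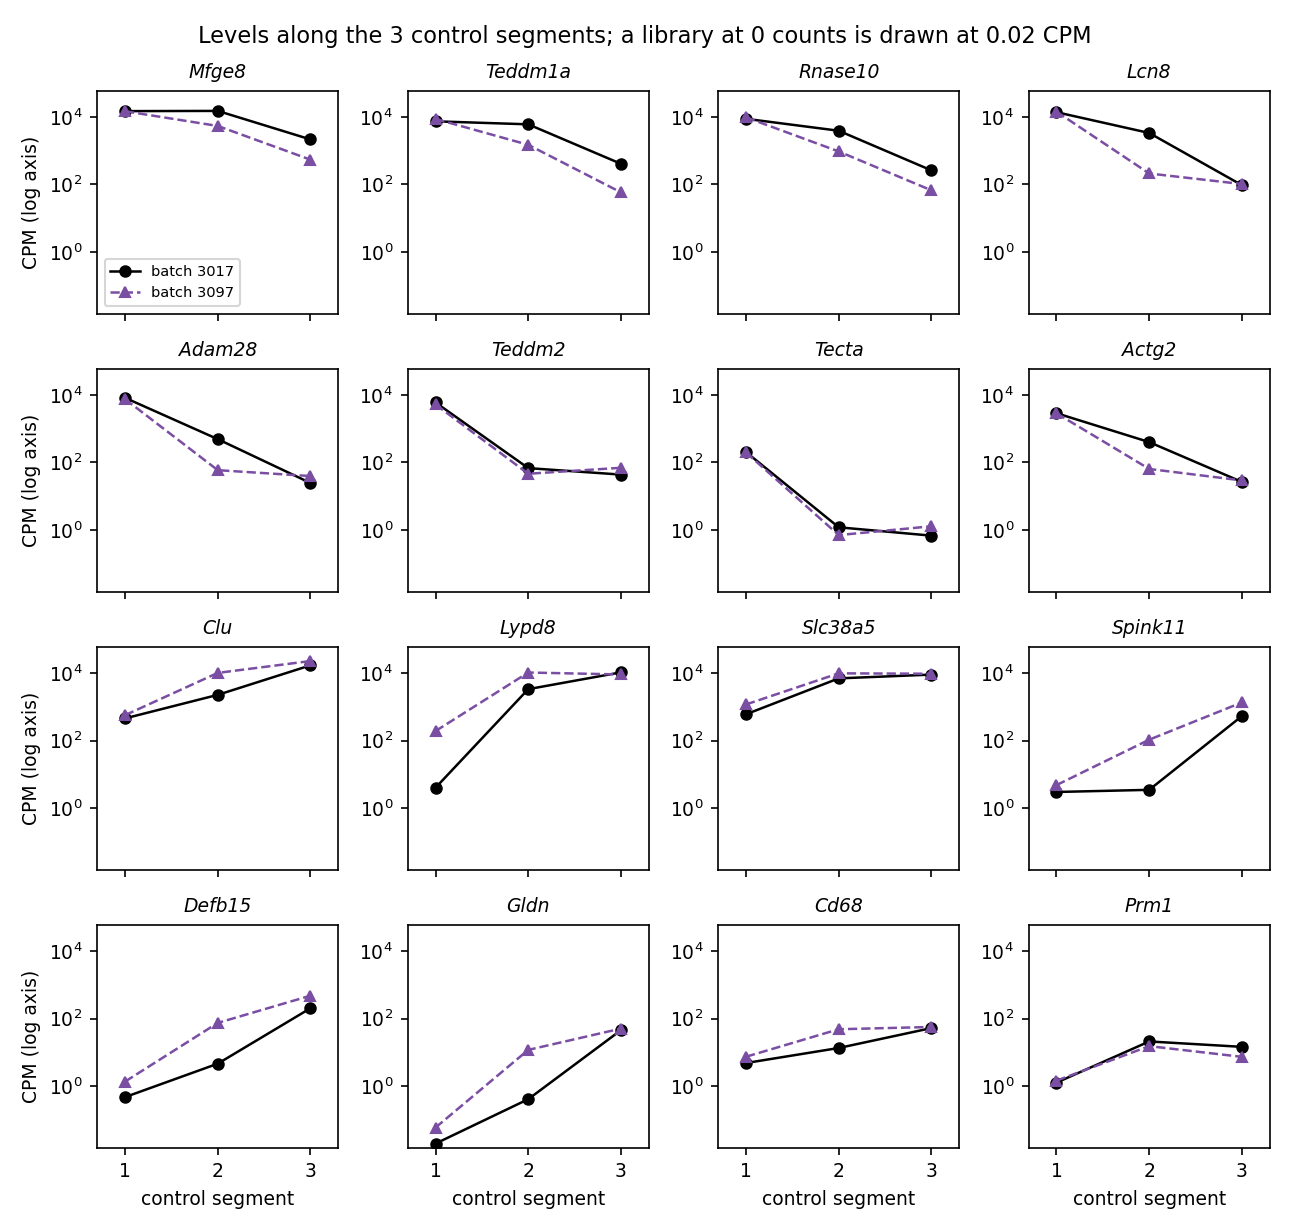
Levels (CPM, log axis) of 16 genes along control segments 1, 2 and 3, with batch 3017 as solid black lines and batch 3097 as dashed purple lines. Tecta and Teddm2 drop between segments 1 and 2 in both batches, Mfge8 and Teddm1a stay high in segment 2, and Lypd8 rises from 4.01 and 191 CPM in segment 1.

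Several of the genes with the most counts did not differ detectably. Eef1a1, an elongation factor gene, held 9095 and 9181 against 7757 and 9670.3 CPM (0.07 ± 0.13, adjusted p = 0.68). The mitochondrial genes mt-Co1 (-0.23 ± 0.14, adjusted p = 0.21) and mt-Cytb (-0.23 ± 0.13, adjusted p = 0.18), the membrane protein gene Itm2b (0.2 ± 0.18, adjusted p = 0.38) and the elongation factor gene Eef2 (-0.18 ± 0.13, adjusted p = 0.28) were not called either.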

How the data were processed

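RNA from segments of the mouse epididymis was sequenced in 12 libraries, 2 of each segment and treatment, each a pool of 2 mice. The authors deposited 2 tables of raw counts per gene, 1 per batch, which hold whole numbers for 55536 gene identifiers. The submitters' processing notes name Trim Galore 0.6.0, cutadapt, FastQC and STAR 2.7.0e as tools and GRCm38 and mm10 as builds. The sources used here do not give the counting program, strand setting or annotation, so counts of overlapping genes, antisense genes and close paralogs are uncertain. All identifiers matched GENCODE mouse release 21 (GRCm38), which supplied names and positions.

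Columns name the group and the batch but not the replicate number of the labels, so libraries are named by group and batch. Genes with low counts were removed with edgeR 4.0.16 (filterByExpr, minimum count 10) and libraries were scaled by TMM. A model with 6 groups and the batch was fitted to all 12 libraries, leaving 5 residual degrees of freedom, with edgeR's robust quasi-likelihood test and Benjamini-Hochberg adjustment over 19213 genes. The SE is the size of the log2 fold change divided by the square root of F. At 30.5 to 42.3 M counts a library, 3 counts correspond to 0.0709 to 0.0984 CPM; this floor, and the exact 95% intervals of ratios with 1 to 3 counts in a segment, cover counting error only. The scripts were tested on simulated data. Tables were read with R 4.3.3; limma 3.58.1 and DESeq2 1.42.0 served as dependency and alternative.

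The batch pairs the groups compared, since each batch is 1 deposited table. Deviations from the group means of control segments 1 and 3 of the same batch correlated at 0.259, and over all pairs of groups at 0.0832 to 0.550. Named genes, 160 in all, were the 12 largest fold changes of protein-coding genes of at least 5 CPM and the 8 most abundant of at least 2-fold, in each direction. To these were added the marker genes of the segments and the 6 most abundant genes that were not called. Each list gave the 2 called members with the largest fold change of either sign and the 2 with the smallest adjusted p. Families also gave their most abundant member called in each direction. Genes named beside these were chosen after their values were seen, and some genes are not reported here. The segments, the 41 gene lists and these choices were made with earlier results of these data known. Alternatives were DESeq2, library totals or RLE factors in place of TMM, no low-count filter, a minimum count of 50, no batch term, only the 4 or the 6 control libraries, leaving out segment 2, and leaving out each library in turn. Promoter sequences come from the RefSeq table for GRCm38.p6.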

Additional observations from a re-analysis of the deposited data

How the results depend on the processing

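Counts of called genes stayed within 1.5 times of the main count under each alternative run, while the balance between directions turned under some. The number of genes called, 9829, was 9065 with DESeq2, 9777 with library totals in place of TMM, 9876 with RLE factors, 8698 with a minimum count of 50, 9209 with no low-count filter, 9159 with the 4 libraries compared, 8585 with the 6 control libraries and 10329 without segment 2. Leaving out each library in turn gave 6887 to 7881. With library totals, 42.6% of the calls were higher in segment 1, against 48.8% with TMM, and the median over all genes was -0.12. That share was 51.4% with DESeq2, 51.3% with RLE factors and 50.7% without segment 2. Calls higher in segment 1 were also the larger number with the 6 control libraries (4296 against 4289) and without either the segment 1 library of batch 3017 (3488 against 3399) or the segment 3 library of batch 3097 (3959 against 3922). No gene called in both an alternative and the main setting changed sign. With no replicate block, that is without the batch term that pairs the segments, 8341 genes were called, 4013 higher in segment 1 and 4328 in segment 3.

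Leaving out 1 library ended the calls of 10 and 8 named genes for the segment 1 libraries of batches 3017 and 3097, and of 7 and 7 for those of segment 3. Of 153 named genes called, 137 kept the call each time. Of the counts of list members under an alternative, 79 moved by over 1.5 times and 961 did not, and 110 list medians moved by over the spread between batches while 410 did not. With a library left out, its group has a single sample, assumed to vary like the others. With 2 pools a segment, a difference particular to 1 pool of mice cannot be told apart from one between segments, and genes of a few counts have wide intervals.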

Other observations

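Gene families were also read by the stem of their symbols, chosen after their values were seen. Genes of glycosyltransferases, which build the sugar coats of membrane and secreted proteins, were read together with sulfotransferase genes such as Chst15 and Gal3st3. Of 84 tested, 29 were called higher in segment 1 and 21 in segment 3 (median 0.07, or -0.004 with library totals). Beside these, 25.0% and 26.2% of all genes were called in these directions by edgeR's quasi-likelihood test. St3gal2, a sialyltransferase gene, held 1423 and 1248 CPM in segment 1 and 21.1 and 8.0 CPM in segment 3 (6.75 ± 0.96, adjusted p = 0.0022). Galnt6, whose product starts O-linked chains, held 73.7 and 63.1 against 0.341 and 0.632 CPM (7.11 ± 0.61, adjusted p = 1.3e-04). The fucosyltransferase genes parted, with Fut8 at 103 and 95.2 against 8.63 and 6.61 CPM (3.71 ± 0.51, adjusted p = 0.0016) and Fut1 at 9.34 and 14.8 against 82 and 102 CPM (-2.95 ± 0.31, adjusted p = 3.8e-04). All 4 Nxpe genes were higher in segment 3, where Nxpe2 held 23 and 84.7 CPM, with 0.250 and 0.566 CPM in segment 1 (-6.95 ± 0.93, adjusted p = 0.0017).

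Potassium channel genes were called higher in segment 3 in 23 of 57 tested cases and in segment 1 in 6 (median -0.87). Counts of potassium channel, cytochrome P450 and keratin genes stand beside 25.0% of all genes called higher in segment 1 and 26.2% in segment 3. Kcnh2, a voltage-gated channel gene, held 1.5 and 3.75 against 35.4 and 41.1 CPM (-3.9 ± 0.38, adjusted p = 2.3e-04). Kcnj11, the pore subunit of the ATP-sensitive channel, was the opposite, at 114 and 88.9 against 1.28 and 0.527 CPM (7.06 ± 0.82, adjusted p = 8.8e-04). Cytochrome P450 genes were higher in segment 3 in 13 of 33 tested cases and in segment 1 in 3 (median -0.34), with 5 in segment 1 without segment 2 or with the control libraries alone. Cyp4f15 held 3.73 and 5.48 against 75.9 and 62.7 CPM (-3.94 ± 0.28, adjusted p = 4.6e-05). Of 13 keratin genes tested, 5 were higher in segment 1 and 3 in segment 3, or 1 without the segment 1 library of batch 3097. Krt23 held 561 and 365 against 1.99 and 2.84 CPM (7.5 ± 0.52, adjusted p = 9.9e-05).

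Uroplakin genes, known from the bladder lining, had 2 of 4 tested higher in segment 1 and 1 in segment 3. These are too few to set apart from the shares of all genes, 25.0% and 26.2%. Upk1a held 0.501 and 2.65 against 90.8 and 120.0 CPM (-6.23 ± 0.77, adjusted p = 0.0013; 0.0543 with the 4 libraries alone), opposite to Upk1b.

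An unnamed gene model, Gm4846, stood among the abundant transcripts of segment 1 at 9466 and 10649 CPM, with 30.8 and 73.8 CPM in segment 3 (7.48 ± 1.65, adjusted p = 0.013). Its call was lost at 0.0585 without the segment 1 library of batch 3097 and 0.0644 without the segment 3 library of batch 3017, and at 0.0687 with the 6 control libraries. Gm42418, a gene model known to overlap ribosomal RNA sequence, held 3700.4 and 2752 CPM in segment 1, 32575 and 28180.0 CPM in segment 2 and 24688 and 7532 CPM in segment 3 (-2.27 ± 0.50, adjusted p = 0.0083, and 0.0516 without the segment 1 library of batch 3017 and 0.0568 without the segment 1 library of batch 3097).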
